A study of Mus musculus with 8 samples.

Results

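Expression of 35 genes of the G1/S transition and DNA replication was compared between FoxO3 null and wild type neural progenitor cultures. FoxO3 is a forkhead transcription factor, and the series asks for its role in the upkeep of neural stem cells. The genes were listed by name: cyclins, cyclin-dependent kinases and E2Fs (10 genes), origin licensing factors (5), the MCM helicase and its activators (10), polymerases and clamp (5), nucleotide supply (3) and the chromatin of new DNA (2). Each gene was represented by the probe set that the platform annotation gives to that symbol alone and that has the highest mean over 8 arrays. All 35 were measured, out of 18193 genes. The cells were secondary neurospheres, free-floating spheres regrown from dissociated first spheres, of mice of the FVB/N strain. FoxO3 null spheres came from FoxO3-/- mice (4 arrays) and wild type spheres from FoxO3+/+ mice (4 arrays). Cells of both genotypes were taken from the forebrain, seeded at 50000 cells/ml, fed the growth factors EGF (20 ng/ml) and bFGF (20 ng/ml) and collected on day 6, as the labels describe. The arrays carry a set number, and each genotype has 2 arrays in set 1 and 2 in set 2. The meaning of a set is not in the labels. Nor do they state that the 2 arrays of one genotype within a set are different animals or cultures, so the p-values reflect array-to-array spread that may be technical. They also do not give the age of the mice or which part of Foxo3 is missing.

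A cell commits to division when D-type cyclins, with Cdk4 and Cdk6, and then cyclin E with Cdk2 phosphorylate the retinoblastoma protein and so release E2F transcription factors, which switch on the genes of S phase. Before that point origins of replication are licensed: the origin recognition complex, Cdc6 and Cdt1 load the ring of Mcm2 to Mcm7 onto DNA, and geminin blocks a second loading. Cdc45 and the GINS complex then turn the ring into a moving helicase, which polymerases follow. In the neural stem cell lineage quiescent cells hold most of these transcripts low, and dividing progenitors, the main cells of neurospheres, hold them high.

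Promoter sequence is shown for 4 of these genes because the transcripts are known to answer to E2Fs and FoxO3 is a forkhead factor. Windows ran from 250 bases before to 50 bases after the start site (RefSeq, GRCm38.p6), and 28 of the 35 genes had one, 32 windows in all. The letters TTTNNCGC, a common form of the E2F site, stood on either strand in 15 of these 32 windows (46.9%), against 5.17% of all 32851 windows. The 15 windows belong to 14 genes: Cdk2, Cdk6, E2f2, Orc1, Cdc6, Cdt1, Mcm3, Mcm5, Mcm6, Mcm7, Pola1, Rfc3, Tyms and Uhrf1. The forkhead letters GTAAACA stood in 3 of 32 windows (9.38%; Ccnd3, Mcm7 and Cdc45), against 3.65% of all windows, and CCAAT in 22 of 32 (68.8%), against 37.4%. No E2F match overlapped a forkhead match. A match is a run of letters, not a measured binding site. The windows printed are those of the 3 genes with a window, a positive fold change and the smallest p (Uhrf1, Cdk2 and Cdc6) and of the gene with a negative one and the smallest p (Ccnd3). Uhrf1 and Ccnd3 have 2 windows each, and the one with the most E2F and forkhead matches was picked. Capitals mark the E2F letters in the first 3 and the forkhead letters in Ccnd3, in each case on the strand that holds them or as their reverse complement. Uhrf1 lies at chr17:56303087-56303386 (+ strand), Cdk2 at chr10:128705002-128705301 (- strand), Cdc6 at chr11:98907901-98908200 (+ strand) and Ccnd3 at chr17:47504801-47505100 (+ strand).
Uhrf1: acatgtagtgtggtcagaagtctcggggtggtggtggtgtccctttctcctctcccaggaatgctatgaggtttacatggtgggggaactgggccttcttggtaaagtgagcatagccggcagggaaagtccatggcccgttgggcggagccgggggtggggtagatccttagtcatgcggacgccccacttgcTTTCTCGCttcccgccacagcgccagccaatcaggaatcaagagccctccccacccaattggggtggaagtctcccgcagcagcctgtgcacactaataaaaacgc
Cdk2: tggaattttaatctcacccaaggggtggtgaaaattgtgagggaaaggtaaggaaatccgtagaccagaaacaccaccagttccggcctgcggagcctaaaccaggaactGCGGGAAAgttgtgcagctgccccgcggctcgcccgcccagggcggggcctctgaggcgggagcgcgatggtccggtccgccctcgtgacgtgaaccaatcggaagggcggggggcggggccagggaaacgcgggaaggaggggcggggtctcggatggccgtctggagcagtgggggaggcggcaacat
Cdc6: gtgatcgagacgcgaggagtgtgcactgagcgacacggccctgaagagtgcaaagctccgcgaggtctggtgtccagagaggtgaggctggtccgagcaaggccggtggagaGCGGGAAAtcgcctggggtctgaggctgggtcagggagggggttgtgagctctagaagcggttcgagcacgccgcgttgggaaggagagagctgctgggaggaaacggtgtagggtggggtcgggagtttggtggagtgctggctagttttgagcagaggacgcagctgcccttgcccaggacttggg
Ccnd3: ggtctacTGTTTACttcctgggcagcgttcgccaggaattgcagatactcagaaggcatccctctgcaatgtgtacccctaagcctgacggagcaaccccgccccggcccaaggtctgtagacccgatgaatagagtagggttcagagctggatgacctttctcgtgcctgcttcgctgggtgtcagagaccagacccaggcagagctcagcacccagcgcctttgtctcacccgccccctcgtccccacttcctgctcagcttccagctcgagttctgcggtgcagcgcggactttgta
The E2F letters end 48 bases before the start site in Uhrf1, 132 in Cdk2 and 130 in Cdc6, and the forkhead letters end 236 bases before it in Ccnd3. For Cdc6 that start site is an internal one. The annotated gene begins at position 98907709, before the printed window, so the marked letters of Cdc6 lie inside the gene.

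RNA of each sphere sample was hybridised to an Affymetrix Mouse430_2 array, and the values are log2 expression values. Array medians lay between 6.27 and 6.31, correlations between arrays of a set were at least 0.996, and those between arrays of different sets at most 0.991. With 8 arrays, precision is limited by their number. The Foxo3 transcript was lower in the FoxO3 null arrays. Its brightest probe set read 8.86, 9.08, 9.05 and 9.14 in FoxO3 null spheres, against 10.24, 10.26, 10.32 and 10.00 in wild type spheres, with the arrays in the order 1_1, 1_2, 2_1 and 2_2 as in all lists of 4 values below. It fell by 1.17 on the log2 scale (limma with Benjamini-Hochberg adjustment, adjusted p = 0.000649 over all probe sets), the next brightest fell by 1.07 (adjusted p = 0.0021), and another, dim one differed by 0.33 without passing (adjusted p = 0.11). A probe set outside the missing part of the gene checks nothing about the genotype.

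Most G1/S and replication genes read slightly higher in FoxO3 null spheres, and none passed the test. Of 35 genes, 31 had a positive log2 fold change (FoxO3 null minus wild type), and the 4 with a negative one were the 3 D-type cyclins and Cdk6. Over all genes 54.2% were positive. The median log2 fold change of the 35 was 0.13, with a range of -0.14 to 0.25, while that of all genes was 0.0091 and that of the genes above the median level, where 33 of the 35 lie, was 0.01. In spheres, more dividing cells and more of each transcript per cell cannot be told apart. limma on all 18193 genes, with set as a term and Benjamini-Hochberg adjustment, called 0 of the 35 at an adjusted p under 0.05, the lowest being 0.117 for Uhrf1, where 1.6% of all genes passed. At an unadjusted p under 0.05, 17 of the 35 were counted, where 15.5% of all genes were. Of these 15 were higher in FoxO3 null spheres (8.32% of all genes) and 2 lower (7.18% of all genes). Standard errors lay between 0.05 and 0.10. No 95% interval of the 35 reached 0.5 in either direction, the lowest bound being -0.29 and the highest 0.44. These counts moved both ways with single arrays. The number at an unadjusted p under 0.05 was 4 without wild type array 2_1 and 5 without FoxO3 null array 2_1. It was 9 without wild type array 2_2 and 10 without FoxO3 null array 2_2. For set 1 it was 12 without wild type array 1_1 and 14 without FoxO3 null array 1_2. It rose to 20 without FoxO3 null array 1_1 and to 22 without wild type array 1_2.

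**Figure D1:**
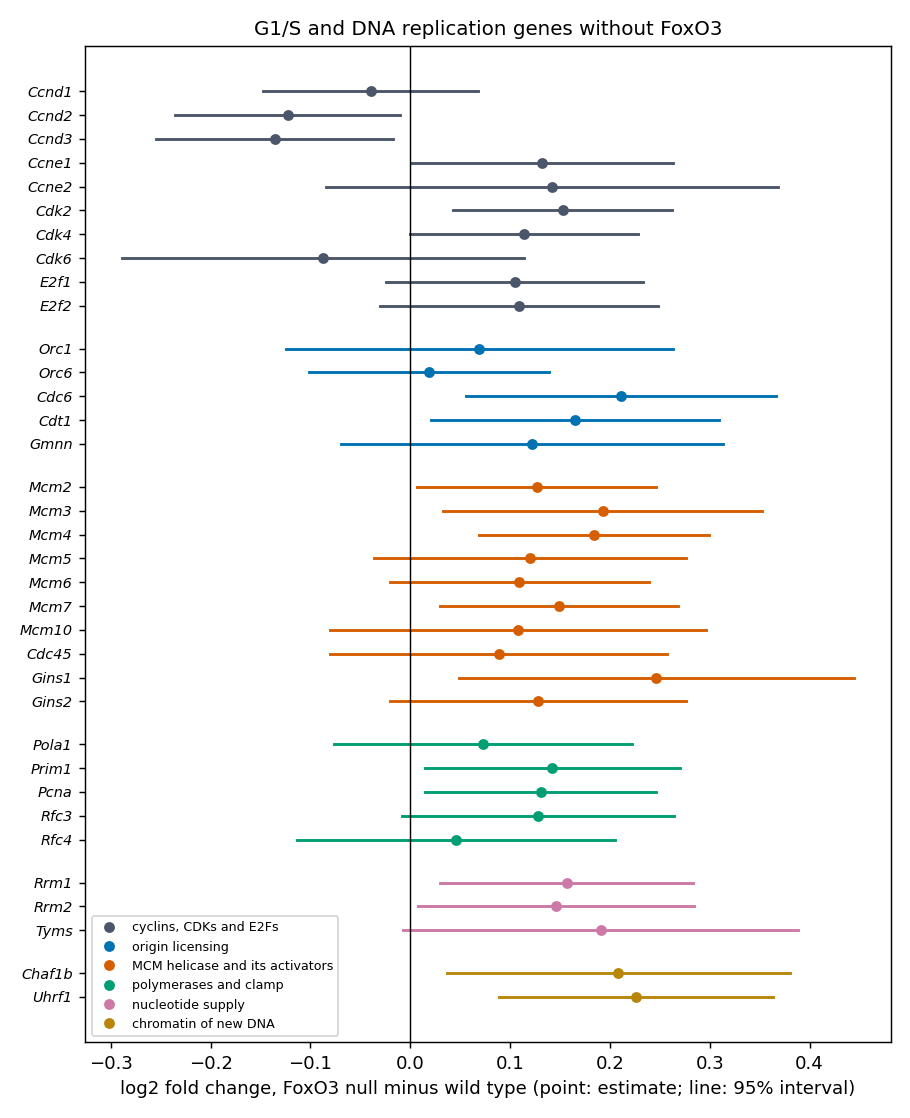
Log2 fold change (FoxO3 null minus wild type, horizontal axis) of each of the 35 genes, grouped by role, with points for the estimate from limma with set as a term (8 arrays) and lines for its 95% interval. Points lie right of 0 for 31 genes and left of 0 for Ccnd1, Ccnd2, Ccnd3 and Cdk6, and 17 intervals leave out 0.

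Within the cyclins, kinases and E2Fs, the D-type cyclins and Cdk6 had negative fold changes and the other 6 genes, Cdk4 among them, positive ones; differences between these genes were not tested. Log2 fold changes were -0.04 for Ccnd1, -0.12 for Ccnd2, -0.14 for Ccnd3 and -0.09 for Cdk6, a kinase partner of the D-type cyclins. They were 0.13 for Ccne1, 0.14 for Ccne2 and 0.15 for Cdk2, the partner of cyclin E, 0.11 for Cdk4, the other partner of the D-type cyclins, 0.10 for E2f1 and 0.11 for E2f2, activating E2Fs. The median of the 10 was 0.11, 6 were positive and 0 passed. Cdk2 read 10.15, 10.13, 9.99 and 10.01 in FoxO3 null spheres, against 10.05, 9.96, 9.78 and 9.88 in wild type spheres. Both FoxO3 null arrays lay above both wild type arrays within each set, though the groups overlapped across sets. Its log2 fold change was 0.15 ± 0.05 (SE, n = 4 each, limma adjusted p = 0.178). Ccnd3 read 9.75, 9.69, 10.06 and 10.00 in FoxO3 null spheres, against 9.74, 9.85, 10.24 and 10.21 in wild type spheres. The FoxO3 null arrays were lower in set 2 and overlapped with wild type in set 1, and the difference was -0.14 ± 0.05 (limma adjusted p = 0.259). Ccnd2, the D-type cyclin known for its part in adult neurogenesis, read 13.48, 13.50, 13.69 and 13.69 in FoxO3 null spheres, against 13.51, 13.59, 13.89 and 13.86 in wild type spheres. In each set both FoxO3 null arrays lay below both wild type arrays, with a difference of -0.12 ± 0.05 (limma adjusted p = 0.281). In the probe sets that represent them, Cdk4 and Uhrf1 had all 4 FoxO3 null arrays above the 4 wild type arrays. How many of all genes do so was not counted. In the other probe sets of both genes the groups overlapped, and those of Cdk4 had log2 fold changes of 0.08 and 0.02.

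All 5 licensing genes had positive fold changes, with a median of 0.12, and 0 passed. Cdc6, the ATPase that loads the MCM ring together with Cdt1, read 9.14, 9.23, 9.11 and 9.09 in FoxO3 null spheres, against 9.14, 9.14, 8.69 and 8.75 in wild type spheres. The wild type arrays of set 2 were the low ones, and the 2 genotypes were close in set 1. Its log2 fold change was 0.21 ± 0.07 (limma adjusted p = 0.184), or 1.16-fold. Cdt1 read 10.85, 10.94, 10.89 and 10.81 in FoxO3 null spheres, against 10.85, 10.88, 10.53 and 10.56 in wild type spheres. Here too the wild type arrays of set 2 stood low, for a difference of 0.17 ± 0.07 (limma adjusted p = 0.259). Gmnn, which encodes the Cdt1 inhibitor geminin, read 10.44, 10.49, 10.12 and 10.04 in FoxO3 null spheres, against 10.44, 10.63, 9.67 and 9.86 in wild type spheres. Both genotypes were lower in set 2 and wild type more so, with a difference of 0.12 ± 0.09 (limma adjusted p = 0.556). For the subunits of the origin recognition complex the differences were 0.07 for Orc1 and 0.02 for Orc6. Those 2 were below 0 when an array was left out: Orc1 was -0.0085 without wild type array 2_2, and Orc6 was -0.01 without FoxO3 null array 2_1 and -0.0049 without wild type array 2_2.

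The 10 genes of the MCM helicase and its activators were all positive, from 0.09 for Cdc45 to 0.25 for Gins1, with a median of 0.13, and 0 passed. Mcm4, a subunit of the helicase ring, read 11.90, 11.97, 11.74 and 11.78 in FoxO3 null spheres, against 11.78, 11.85, 11.52 and 11.50 in wild type spheres. Both FoxO3 null arrays lay above both wild type arrays in each set, and the difference was 0.18 ± 0.05 (limma adjusted p = 0.126). Mcm7, another subunit of the ring, read 12.99, 13.00, 12.72 and 12.63 in FoxO3 null spheres, against 12.83, 12.96, 12.45 and 12.50 in wild type spheres. Here too FoxO3 null arrays were the higher ones in each set, with a difference of 0.15 ± 0.05 (limma adjusted p = 0.217). Gins1, a subunit of the GINS complex, had the highest fold change of the 35. It read 8.88, 8.96, 8.82 and 8.67 in FoxO3 null spheres, against 8.89, 8.92, 8.26 and 8.28 in wild type spheres. The genotypes overlapped in set 1 and stood apart in set 2, for a difference of 0.25 ± 0.09 (limma adjusted p = 0.221), or 1.19-fold. The other ring subunits had log2 fold changes of 0.13 for Mcm2, 0.19 for Mcm3, 0.12 for Mcm5 and 0.11 for Mcm6. Those of Mcm10, which helps start the helicase, and of the GINS subunit Gins2 were 0.11 and 0.13.

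Among polymerases and clamp, all 5 were positive, with a median of 0.13, and 0 passed. Pcna, the sliding clamp of the polymerases, read 13.71, 13.71, 13.58 and 13.51 in FoxO3 null spheres, against 13.55, 13.66, 13.34 and 13.44 in wild type spheres. FoxO3 null arrays were the higher ones in each set, by 0.13 ± 0.05 (limma adjusted p = 0.264). Prim1, the catalytic subunit of primase, read 10.62, 10.65, 10.41 and 10.36 in FoxO3 null spheres, against 10.54, 10.65, 10.13 and 10.16 in wild type spheres. Within sets the groups overlapped in set 1 alone, and the difference was 0.14 ± 0.06 (limma adjusted p = 0.271). Rfc3, a subunit of the clamp loader, read 10.55, 10.69, 10.40 and 10.38 in FoxO3 null spheres, against 10.48, 10.64, 10.15 and 10.24 in wild type spheres. Its groups also overlapped in set 1, with a difference of 0.13 ± 0.06 (limma adjusted p = 0.359). Rfc4, of the same complex, had a log2 fold change of 0.05 and Pola1, the catalytic subunit of polymerase alpha, 0.07.

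The 3 nucleotide supply genes were positive, with a median of 0.16, and 0 passed. Rrm1, the large subunit of ribonucleotide reductase, read 12.37, 12.33, 11.98 and 11.89 in FoxO3 null spheres, against 12.18, 12.34, 11.69 and 11.74 in wild type spheres. FoxO3 null arrays were above wild type in set 2 and overlapped with it in set 1, for a difference of 0.16 ± 0.06 (limma adjusted p = 0.224). Rrm2, the small subunit, read 12.86, 12.82, 12.54 and 12.48 in FoxO3 null spheres, against 12.88, 12.75, 12.25 and 12.25 in wild type spheres. Again the groups stood apart in set 2 alone, and the difference was 0.15 ± 0.06 (limma adjusted p = 0.295). Tyms, thymidylate synthase, had a log2 fold change of 0.19 in a dim probe set. A brighter probe set that the annotation gives to Tyms and its pseudogene Tyms-ps, and so outside the rule and picked after its values were seen, read 9.76, 9.87, 9.68 and 9.61 in FoxO3 null spheres, against 9.48, 9.56, 9.08 and 9.27 in wild type spheres. There all FoxO3 null arrays were above all wild type arrays, with a difference of 0.38 ± 0.07 (limma adjusted p = 0.0309 over all probe sets). Which of the 2 genes it measures is uncertain.

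The 2 genes of the chromatin of new DNA had a median log2 fold change of 0.22, and 0 passed. Uhrf1, which reads hemimethylated DNA behind the fork and brings in the maintenance methylase Dnmt1, had the smallest p of the 35. It read 10.70, 10.91, 10.64 and 10.78 in FoxO3 null spheres, against 10.62, 10.63, 10.44 and 10.43 in wild type spheres. In this probe set all 4 FoxO3 null arrays were above the 4 wild type arrays, which was not counted over all genes. The difference was 0.23 ± 0.06 (limma adjusted p = 0.117), or 1.17-fold, with a 95% interval of 0.09 to 0.36. In the other probe set of Uhrf1 the groups overlapped, with FoxO3 null array 1_1 at 8.35 and wild type array 2_1 at 8.57. Chaf1b, a subunit of the histone chaperone CAF-1, read 9.67, 9.70, 9.41 and 9.21 in FoxO3 null spheres, against 9.52, 9.72, 8.93 and 8.99 in wild type spheres. The groups overlapped in set 1 and stood apart in set 2, with a difference of 0.21 ± 0.08 (limma adjusted p = 0.23). Members with the E2F letters in a window had a median log2 fold change of 0.14 (14 genes, 13 positive), and members with a window that lacks them one of 0.12 (14 genes, 13 positive).

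**Figure D2:**
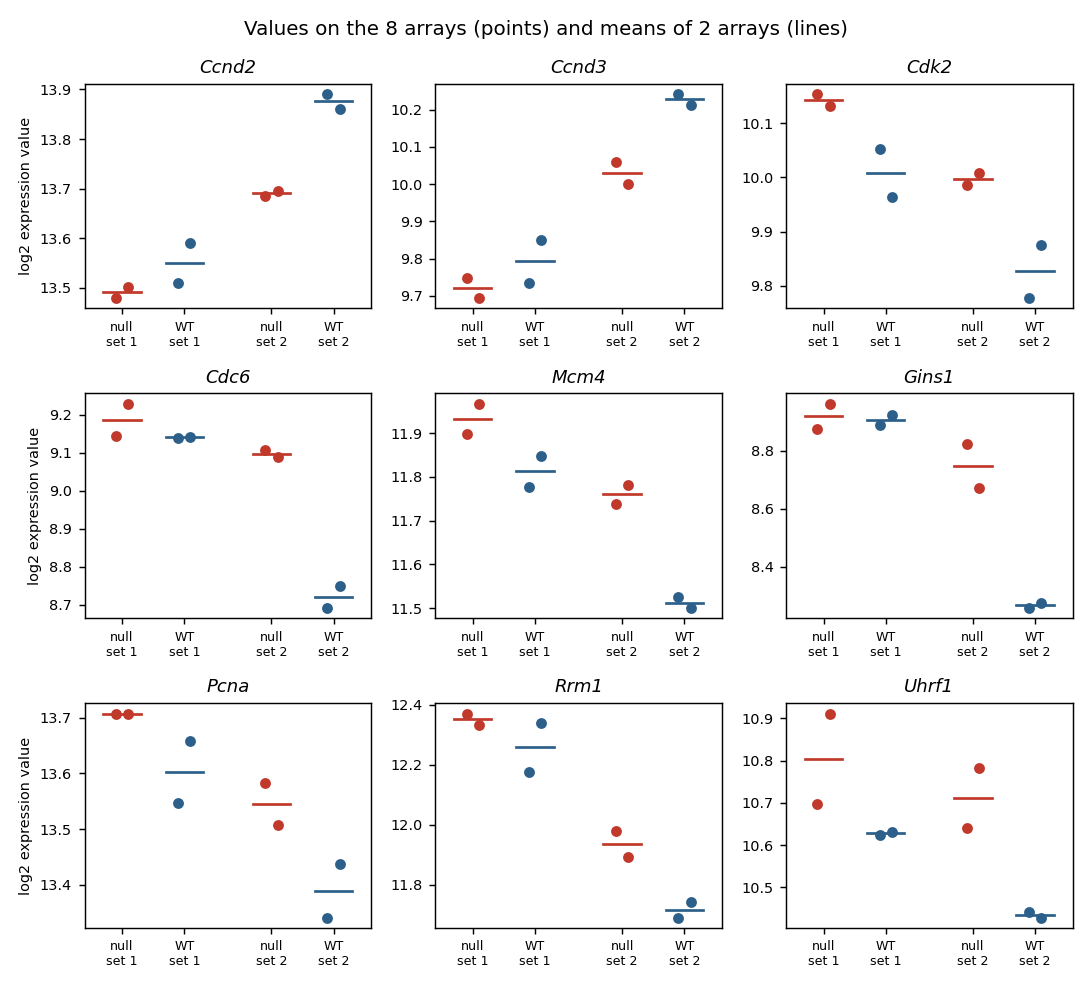
Log2 expression values (vertical axis, scaled for each gene) of 9 of the genes on the 8 arrays, with FoxO3 null arrays in red left of wild type arrays in blue within each set, points for arrays and lines for the mean of 2 arrays. Cdc6 and Gins1 differ by genotype mainly in set 2, Uhrf1 in both sets, and Ccnd2 and Ccnd3 lie lower in FoxO3 null spheres.

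The genotype difference was larger in set 2 than in set 1 for most of these genes. In set 1 the median difference over the 35 was 0.03, with 23 positive (all genes 0.02, 55.6% positive), and in set 2 it was 0.22, with 31 positive (all genes 0.0025, 50.8% positive). It was larger in set 2 for 28 of the 35 (80%), against 47.9% of all genes. Both FoxO3 null arrays lay above both wild type arrays for 11 of the 35 in set 1, where 23.3% of all genes did, and for 27 of the 35 in set 2, where 23.6% did. In set 2 both FoxO3 null arrays lay below both wild type arrays for 4 of the 35, the D-type cyclins and Cdk6, where 21.3% of all genes did. Tested gene by gene, the interaction of genotype and set passed in 0 of the 35 (limma, lowest adjusted p = 0.188, for Gins1), where 0.187% of all genes passed. At an unadjusted p under 0.05 it was counted in 11 of the 35, where 8.7% of all genes were. Of these 11, 5 belonged to the MCM helicase and its activators and 4 to licensing. The median differences of licensing genes were -0.06 in set 1 and 0.30 in set 2. For the MCM helicase and its activators they were 0.02 and 0.24, for polymerases and clamp 0.04 and 0.20, and for nucleotide supply 0.09 and 0.24. Orc1 differed by -0.16 in set 1 and by 0.30 in set 2, and Gins1 by 0.01 and 0.48. Cdk2, at 0.14 and 0.17, and Ccne1, at 0.17 and 0.10, moved less between sets.

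**Figure D3:**
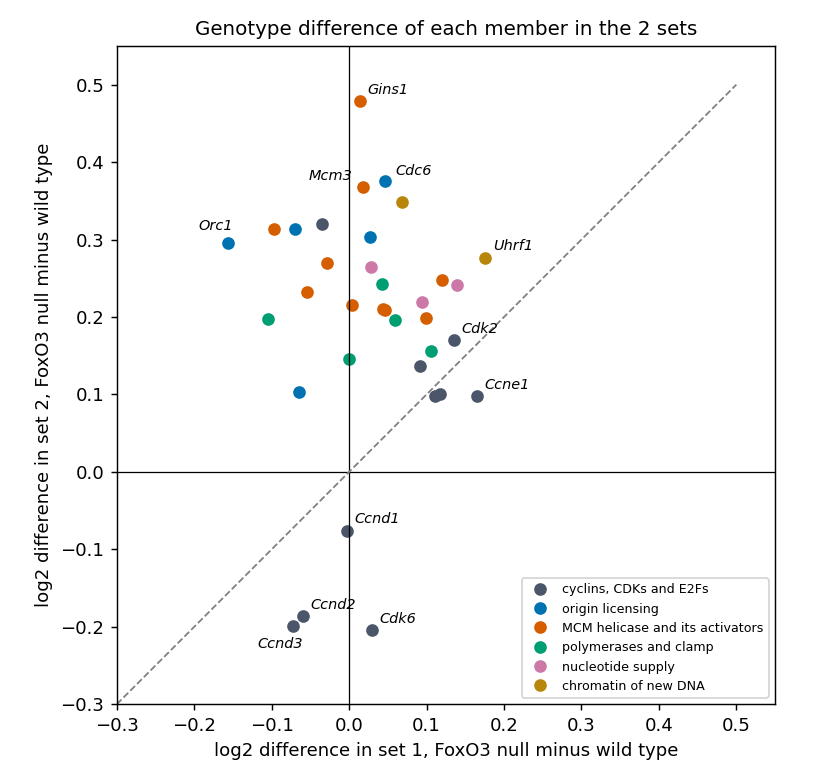
Log2 difference between FoxO3 null and wild type spheres in set 1 (horizontal axis) and in set 2 (vertical axis) for each of the 35 genes, coloured by role, with 2 arrays per genotype and set and a dashed line where both differences are equal. Licensing and MCM genes lie above the line, with Gins1 at 0.01 and 0.48, while Ccnd1, Ccnd2, Ccnd3 and Cdk6 lie below 0 in set 2.

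The sets themselves differed more than the genotypes. In set 2, 24 of the 35 were lower than in set 1 (limma adjusted p under 0.05 for the set term), where 21.6% of all genes were, and 4 were higher, where 22.2% were. The 4 were again Ccnd1 (0.68 higher in set 2), Ccnd2 (0.26), Ccnd3 (0.37) and Cdk6 (0.45). The median difference of the 35, set 2 minus set 1, was -0.28. Averaged over the 35, deviations from each gene's mean were 0.10, 0.14, 0.0071 and -0.03 in the FoxO3 null arrays, and 0.06, 0.13, -0.22 and -0.18 in the wild type arrays. The 2 wild type arrays of set 2 were the lowest of the 8, and the 4 arrays of set 1 were the highest. For the MCM helicase and its activators the same means were 0.18, 0.22, -0.03 and -0.08 in the FoxO3 null arrays, and 0.14, 0.22, -0.36 and -0.30 in the wild type arrays. The cyclins, kinases and E2Fs did not follow that order, with means of -0.04, -0.0067, 0.04 and 0.08 in FoxO3 null and -0.10, -0.04, 0.02 and 0.05 in wild type arrays. What distinguishes the sets was not tested.

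**Figure D4:**
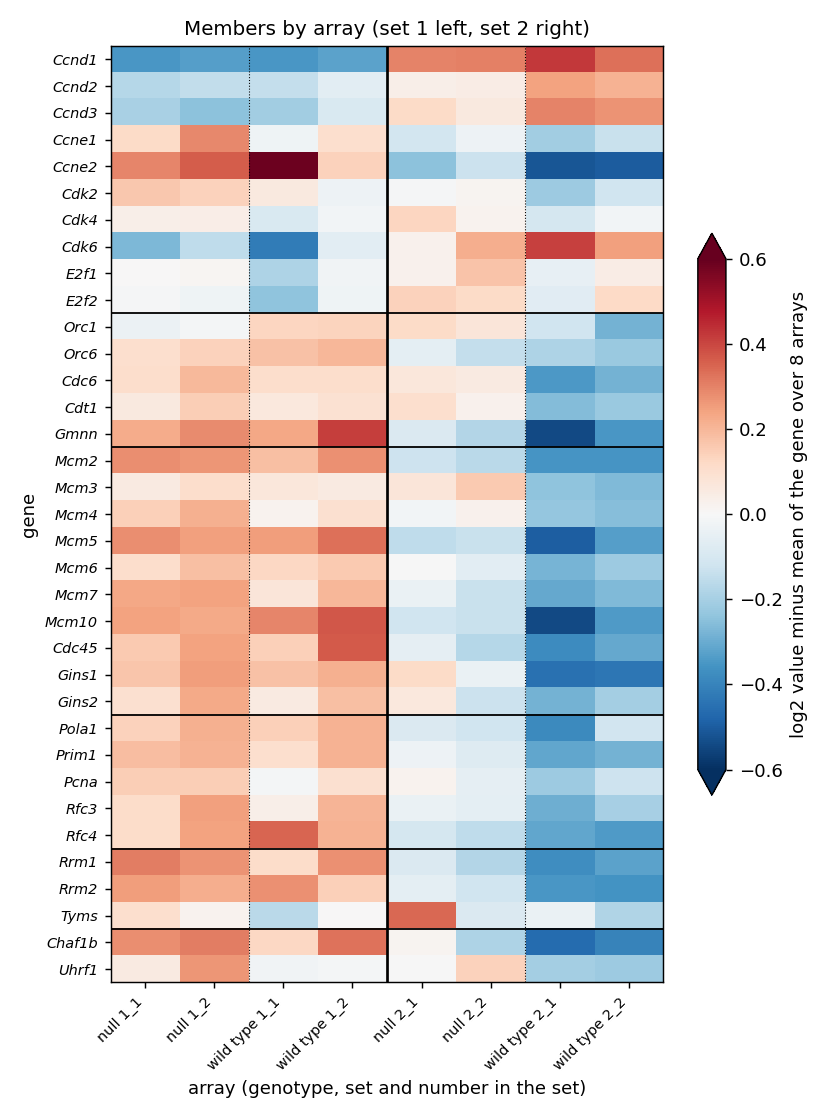
Log2 value minus the mean of the gene over 8 arrays (colour, red above and blue below) for the 35 genes (rows, black lines between role groups) and the 8 arrays (columns, set 1 left and set 2 right, FoxO3 null left of wild type in each). Most licensing, MCM, polymerase and nucleotide genes are red in set 1 and darkest blue in the wild type arrays of set 2, while the D-type cyclins and Cdk6 run the other way.

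The 35 genes have 88 probe sets with 1 symbol, of which 65 had a positive fold change. At probe set level 0 of the 88 passed, where 0.802% of all probe sets did, and 31 had an unadjusted p under 0.05, where 12.7% of all probe sets did. The lowest adjusted p was 0.0884, for the dimmer probe set of Ccne1, with a log2 fold change of 0.27. Of the 30 genes with several probe sets, all probe sets had one sign in 21. All 7 probe sets of Ccnd2 were negative, between -0.31 and -0.07, and 4 of them had an unadjusted p under 0.05. They differed in their set pattern: the dimmest read 8.37, 8.82, 8.04 and 7.90 in FoxO3 null spheres, against 9.06, 9.26, 7.82 and 7.76 in wild type spheres. That probe set was lower in set 2, where the probe set that stands for the gene was higher, and its genotypes stood apart in the negative direction in set 1 alone. Both probe sets of Uhrf1 were positive, at 0.23 and 0.31, as were all 5 of Mcm3 and all 4 of Mcm7. Signs were mixed in Ccnd3, Cdt1, Mcm4, Mcm5, Mcm6, Cdc45, Pola1, Rrm1 and Tyms. Mcm4 had a second probe set at -0.11, Mcm6 one at -0.05, Ccnd3 one at 0.04 and Cdc45 one at -0.03. The sign of these genes therefore depends on the probe set. In Cdt1, Mcm5, Pola1, Rrm1 and Tyms the probe set of opposite sign had a mean below 6. Of 16 probe sets with a mean below 6, where differences are compressed, 9 were positive, and of the other 72, 56 were.

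Other genes of the pathway, from lists of known function, were mostly positive too. Of 38 other DNA replication genes that were measured, 35 had a positive log2 fold change (54.2% of all genes) and 0 passed (1.6% of all genes), with a median of 0.11. At an unadjusted p under 0.05, 15 were counted, all higher (8.32% of all genes). The smallest p values were those of Pole, the catalytic subunit of polymerase epsilon (0.24, limma adjusted p = 0.0741), Tk1, thymidine kinase (0.21, adjusted p = 0.0789), and Wdhd1, a replisome component (0.22, adjusted p = 0.115). Of 20 pocket proteins, other E2Fs and S phase regulators, 15 were positive and 0 passed, with 11 at an unadjusted p under 0.05 (15.5% of all genes), 9 higher and 2 lower. E2f7, a repressing E2F, differed by 0.23 (limma adjusted p = 0.0951), Skp2, which marks the CDK inhibitor p27 for decay, by 0.20 (adjusted p = 0.119), and Rb1, the retinoblastoma gene, by -0.24 (adjusted p = 0.121). All 19 measured mitosis genes were positive, with a median of 0.17, and 0 passed, with 17 at an unadjusted p under 0.05, all higher, where 54.2% of all genes were positive and 8.32% were higher at that p. Nek2, a centrosome kinase, differed by 0.23 (adjusted p = 0.0647), Kif23, a kinesin of cytokinesis, by 0.29 (adjusted p = 0.0683) and Kif11, the spindle kinesin, by 0.20 (adjusted p = 0.0951).

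Of the 7 CDK inhibitors 1 passed, where 1.6% of all genes did, and 4 had negative and 3 positive log2 fold changes. Cdkn2b, which encodes p15, an inhibitor of Cdk4 and Cdk6, read 8.58, 8.55, 9.24 and 9.15 in FoxO3 null spheres, against 9.28, 8.99, 9.67 and 9.79 in wild type spheres. In each set both FoxO3 null arrays were below both wild type arrays, and it fell by 0.55 (limma adjusted p = 0.00442). Cdkn1b, which encodes p27, an inhibitor of cyclin E with Cdk2 and a known FoxO target, differed by -0.45 on the log2 scale (adjusted p = 0.0909). Cdkn1a differed by -0.20 (limma adjusted p = 0.254), by -0.00056 in set 1 and by -0.41 in set 2. The 3 positive ones were Cdkn1c at 0.22 (adjusted p = 0.43), Cdkn2a at 0.08 and Cdkn2c at 0.05. At an unadjusted p under 0.05, 3 of the 7 were lower (7.18% of all genes) and 0 higher (8.32% of all genes).

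Markers of cell types and the Y-linked genes were read on the same arrays. Nes, a marker of neural progenitors, rose by 0.29 (limma adjusted p = 0.0332), the 1 of 8 progenitor markers to pass, where 1.6% of all genes did. Of the 8, 5 had positive log2 fold changes (54.2% of all genes). At an unadjusted p under 0.05, 2 were higher (8.32% of all genes) and 2 lower (7.18% of all genes). The lower ones were Sox2 (-0.26, limma adjusted p = 0.139) and Pax6 (-0.18, adjusted p = 0.189), both transcription factors of neural progenitors. The mean of the 8 lay between 11.43 and 11.47 in FoxO3 null arrays and between 11.41 and 11.46 in wild type arrays. Of 7 astrocyte markers Slc1a2 passed, lower by 0.84 in FoxO3 null spheres, and of 8 neuron markers Gad1 passed, lower by 0.91. Of 7 markers of the oligodendrocyte lineage 3 passed, where 1.6% of all genes did, all lower: Pdgfra, Cspg4 and Sox10. Of those 7, 3 had positive log2 fold changes, among them the myelin genes Mbp (0.44, limma adjusted p = 0.184) and Mog (0.24, adjusted p = 0.395). For Mbp the interaction of genotype and set passed (adjusted p = 0.0366), with differences of 0.87 in set 1 and 0.01 in set 2. The mean of the oligodendrocyte lineage markers lay between 9.58 and 10.69 in FoxO3 null arrays and between 9.58 and 10.86 in wild type arrays. All 7 read higher in set 2, and 5 of them passed for the set term (limma adjusted p under 0.05), where 22.2% of all genes were higher. None of 7 microglia, 5 endothelium and 7 pericyte and fibroblast markers passed, and the means of the microglia and endothelium lists stayed at 5.72 or below on every array. The mean of the pericyte and fibroblast list lay between 6.27 and 6.48 in FoxO3 null arrays and between 6.21 and 6.28 in wild type arrays. That of the astrocyte list lay between 10.19 and 10.66 in FoxO3 null and between 10.28 and 10.84 in wild type arrays, and that of the neuron list between 7.13 and 7.28 in FoxO3 null and between 7.29 and 7.40 in wild type arrays. Transcripts of Eif2s3y, Kdm5d and Uty, which lie on the Y chromosome, were lower in FoxO3 null spheres and 2 of the 3 passed (1.6% of all genes). Their mean was 7.90, 8.09, 6.88 and 7.10 in FoxO3 null arrays, against 8.35, 8.18, 7.80 and 7.66 in wild type arrays, with median differences of -0.72 in set 2 and -0.27 in set 1, and the interaction of genotype and set passed in 0 of the 3. With that mean as a covariate the median log2 fold change of the 35 was -0.02 and 14 were positive, but within sets the mean and the genotype correlate at -0.86. The part of the other markers in the result was not tested.

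**Figure D5:**
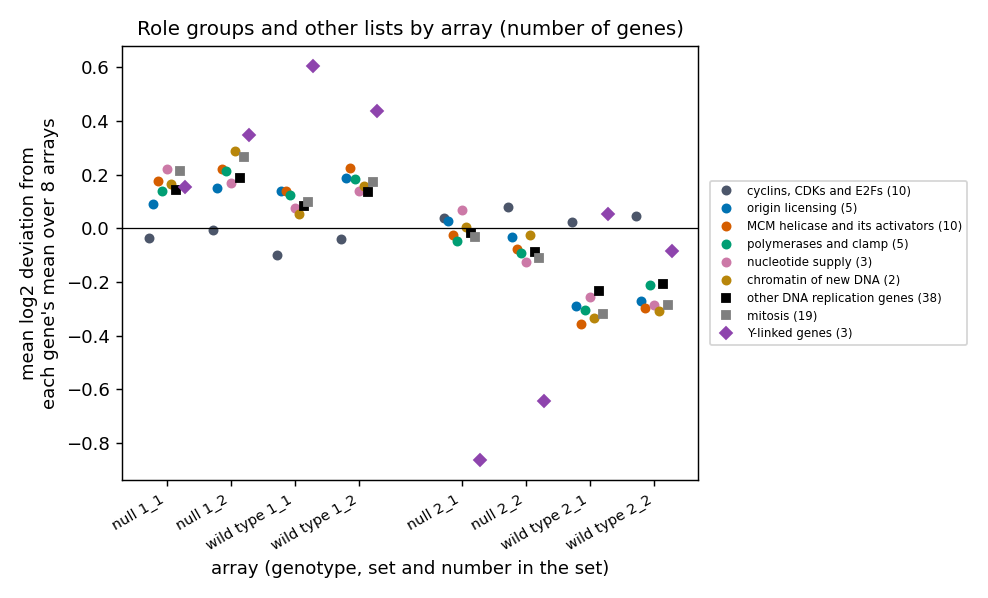
Mean log2 deviation from each gene's mean over 8 arrays (vertical axis) for the 6 role groups, other DNA replication genes, mitosis genes and Y-linked genes (number of genes in the legend) on each array (horizontal axis, FoxO3 null left of wild type in each set). Replication and mitosis lists lie lowest on the wild type arrays of set 2, and the Y-linked genes lie lowest on the FoxO3 null arrays of set 2.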

How the data were processed

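RNA of 8 neurosphere samples was read on Affymetrix Mouse430_2 arrays, 4 per genotype in 2 sets. The deposited table holds log2 expression values. Per the submitters' processing notes they come from RMA, which corrects background, quantile normalizes and summarises each probe set, in a version not given in the sources used here. A shift shared by all genes is therefore not visible. Of 45101 probe sets 64 controls were left out. The platform annotation gives 34945 of the remaining 45037 to 1 symbol, 932 to several and 9160 to none. Positions are those of GRCm38.p6. The test of genotype used lmFit and eBayes of limma 3.58.1 (R 4.3.3), with set as a term, two-sided, and Benjamini-Hochberg adjustment over 18193 genes, and passed at an adjusted p under 0.05. The fit was tested on simulated data.

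Genes with values per array are, in each role group, those with the smallest unadjusted p (3 in groups of 5 or more, otherwise 2). Of other lists, genes that passed or up to 3 with the smallest p are named. Exceptions are Cdkn1a, Cdkn1b, Cdkn1c, Cdkn2a, Cdkn2c, Orc1, the second probe sets and the marker genes, chosen after their values were seen. The members, lists and rules were chosen with earlier results of these data known. Same-numbered arrays correlated at 0.12 in set 1 and -0.11 in set 2 after group means were removed, so the numbers were not taken as pairs. Alternatives covered the set term, the pairing, each set alone, scaling, filters, the variance model, the probe set per gene, repeats, the Y-linked mean and leaving out each array.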

Additional observations from a re-analysis of the deposited data

Results flagged for a closer look

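E2f1 read 7.46 in FoxO3 null array 2_2, away from the other 3 FoxO3 null arrays at 7.29, 7.30 and 7.31, while the wild type arrays read 7.10, 7.27, 7.24 and 7.33. The gap to the nearest of them was 0.877 of the range of the 4, above Dixon's 95% critical value for 4 values. It was the 1 such case in 70 groups of 4 arrays, and chance gives about 1 in 20.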

How the results depend on the processing

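The sign of the 35 fold changes held for all 35 genes with set 2 alone, after a second quantile normalization, after centring and with the mean of all probe sets. Dropping the set term, leaving out moderation, taking means of 2 arrays or using the replicate block cannot change a fold change. Each genotype has 2 arrays in each set, so these settings say nothing about the sign. With the replicate block 0 of the 35 passed (limma, lowest adjusted p 0.181). Crossing the numbers in set 2, chosen after seeing the data, also gave 0. With a variance trend in limma 3 of the 35 passed (adjusted p = 0.0186 for Mcm4, 0.029 for Uhrf1 and 0.0459 for Mcm7). Of the 38 other DNA replication genes 4 passed, and of all 18193 genes 620 did. At probe set level 5 of the 88 passed with the trend, and the number over all probe sets was not counted. With set and genotype together as a random block (correlation -0.23) 2 of the 35 passed (limma adjusted p = 0.0393 for Uhrf1 and 0.0481 for Mcm4). Of all 18193 genes 796 passed there, against 291 in the main test. A negative correlation within these blocks makes the standard error of the genotype difference smaller, so that setting is less strict. Among genes above the median level 2 of the 37 other replication genes passed, where 456 of all 9096 genes did. Leaving out an array gave 0 to 1 passing probe sets, the 1 without FoxO3 null array 1_1. The median of the 35 was 0.030 in set 1 alone, 0.22 in set 2 alone and -0.022 with the Y-linked mean, which left 14 positive. In set 1 alone the sign turned for Ccne2 (-0.035), Cdk6 (0.030), Orc1 (-0.16), Orc6 (-0.065), Gmnn (-0.069), Mcm5 (-0.029), Mcm10 (-0.10), Cdc45 (-0.054), Pola1 (-8.4e-05) and Rfc4 (-0.10). With the Y-linked mean it turned for Ccnd1 (0.028), Cdk6 (0.11), Orc1 (-0.21), Orc6 (-0.11), Cdc6 (-0.0030), Cdt1 (-0.033), Gmnn (-0.23), Mcm2 (-0.022), Mcm5 (-0.13), Mcm6 (-0.052), Mcm10 (-0.24), Cdc45 (-0.18), Gins1 (-0.10), Gins2 (-0.051), Pola1 (-0.083), Prim1 (-0.031), Rfc4 (-0.094), Rrm1 (-0.014), Rrm2 (-0.0065), Tyms (-0.047) and Chaf1b (-0.10). With the probe set of largest variance it turned for Mcm4 (-0.11) and Mcm6 (-0.055). Leaving out an array moved Orc1 between -0.0085 and 0.12 and Orc6 between -0.015 and 0.043. The cause was not tested.

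Over all genes 291 passed, against 3 with no set term, 133 with the replicate block, 63 in set 1, 171 in set 2, 456 of the genes above the median level, 620 with a variance trend, 796 with the random block, 8 with the Y-linked mean, 0 without moderation, 0 with means of 2 arrays and 104 to 222 with an array left out. The 0 without moderation stands beside 2530 genes at an unadjusted p under 0.05 and the 0 with means of 2 arrays beside 1805.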
